A study of Homo sapiens with 16 samples.

Results

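The baseline chromatin of Cal33 and SAS, 2 HPV-negative squamous carcinoma lines of the head and neck, was compared by ATAC-seq, in which a transposase cuts and tags open DNA so that the read count of a peak measures how accessible that stretch was. The comparison used the 8 libraries of the series' 16 whose cells had received the non-targeting siRNA (siControl): Cal33 siControl with 4 biological replicates and SAS siControl with 4. It used the 159774 autosomal peaks of the 164980 that both lines share in the deposited count tables. All 8 cultures carried the transfection itself, were embedded in laminin-rich extracellular matrix for 3D culture 24 h later and gave nuclei at 48 h. Each line is 1 tumour's descendant, so a difference between them is a difference between these lines and not between kinds of tumour. Each label calls its replicates biological, and the p-values measure the spread between those cultures.

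Both lines derive from carcinomas of the tongue. In stratified epithelium, p63, the AP-1 dimers of FOS and JUN proteins, the GRHL factors and the ETS factors EHF and ELF3 hold keratin, desmosome and basement-membrane genes open. Carcinoma cells that shift toward a mesenchymal state use factors such as TWIST, ZEB and PRRX1 instead. Promoters rich in CpG are open in most cell types, so a promoter of this kind that is closed in 1 line and open in the other stands out among promoters.

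Sequences of 6 such promoters are shown because each carries one of the on or off differences described below. They are the RefSeq windows of GRCh38.p14 from 250 bases before to 50 bases after the start, written 5′ to 3′ on the strand of the gene, with every CpG in capitals. The first pair had a peak open in Cal33 and the other 4 had a peak open in SAS. FAT1 lies at chr4:186726647-186726946 on the minus strand, HOOK1 at chr1:59814699-59814998 on the plus strand and CHFR at chr12:132887556-132887855 on the minus strand. UBB lies at chr17:16381040-16381339, SETD6 at chr16:58515267-58515566 and TWIST2 at chr2:238847835-238848134, all 3 on the plus strand.
FAT1: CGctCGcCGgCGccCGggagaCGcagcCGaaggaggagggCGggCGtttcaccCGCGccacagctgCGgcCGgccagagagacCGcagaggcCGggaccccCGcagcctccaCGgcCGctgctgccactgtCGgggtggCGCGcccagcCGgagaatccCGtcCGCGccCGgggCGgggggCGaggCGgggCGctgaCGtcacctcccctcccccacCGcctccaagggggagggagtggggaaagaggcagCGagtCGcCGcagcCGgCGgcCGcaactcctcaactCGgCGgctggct
HOOK1: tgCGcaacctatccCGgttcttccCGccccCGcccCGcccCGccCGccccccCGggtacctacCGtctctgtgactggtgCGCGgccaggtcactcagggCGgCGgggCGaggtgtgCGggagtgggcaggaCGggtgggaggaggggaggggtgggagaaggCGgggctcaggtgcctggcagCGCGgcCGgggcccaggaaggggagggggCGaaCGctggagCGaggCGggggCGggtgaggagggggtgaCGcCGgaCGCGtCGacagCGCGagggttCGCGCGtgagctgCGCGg
CHFR: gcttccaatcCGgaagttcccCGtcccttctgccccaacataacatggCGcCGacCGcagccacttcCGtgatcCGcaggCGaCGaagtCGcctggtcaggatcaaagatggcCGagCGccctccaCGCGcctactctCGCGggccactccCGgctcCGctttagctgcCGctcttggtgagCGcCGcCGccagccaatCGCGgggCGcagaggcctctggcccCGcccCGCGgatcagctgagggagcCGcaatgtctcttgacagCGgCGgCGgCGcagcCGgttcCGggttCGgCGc
UBB: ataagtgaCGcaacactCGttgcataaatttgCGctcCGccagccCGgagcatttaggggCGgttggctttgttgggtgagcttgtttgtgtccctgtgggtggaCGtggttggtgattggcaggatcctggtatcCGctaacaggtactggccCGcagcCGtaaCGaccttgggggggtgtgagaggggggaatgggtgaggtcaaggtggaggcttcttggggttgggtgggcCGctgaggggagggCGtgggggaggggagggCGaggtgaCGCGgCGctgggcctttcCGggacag
SETD6: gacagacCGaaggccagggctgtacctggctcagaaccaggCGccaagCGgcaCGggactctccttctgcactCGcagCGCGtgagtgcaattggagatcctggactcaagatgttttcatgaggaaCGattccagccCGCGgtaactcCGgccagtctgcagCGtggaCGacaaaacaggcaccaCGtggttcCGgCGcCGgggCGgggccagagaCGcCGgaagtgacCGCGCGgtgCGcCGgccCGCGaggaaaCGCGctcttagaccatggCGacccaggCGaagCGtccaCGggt
TWIST2: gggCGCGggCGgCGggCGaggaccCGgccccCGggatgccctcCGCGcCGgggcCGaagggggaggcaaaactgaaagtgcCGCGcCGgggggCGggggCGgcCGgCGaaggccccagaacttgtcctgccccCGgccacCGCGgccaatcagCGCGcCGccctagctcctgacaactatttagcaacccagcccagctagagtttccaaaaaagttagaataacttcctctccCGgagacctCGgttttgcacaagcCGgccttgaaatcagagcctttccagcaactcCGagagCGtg
The windows hold 40 CpG in FAT1, 37 in HOOK1, 37 in CHFR, 18 in UBB, 33 in SETD6 and 29 in TWIST2. The median of all 7713 protein-coding start windows with a tested promoter peak was 28.

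Total counts ran from 3980563 to 8367079 per Cal33 library and from 1766033 to 4870187 per SAS library, so values of SAS carry the larger counting error. Peak levels, as log2 of CPM (counts scaled to a common library size), correlated at 0.955 to 0.973 between Cal33 libraries, at 0.915 to 0.952 between SAS libraries and at 0.519 to 0.590 between the lines. Of 12 squamous markers, 11 had a tested peak, and KRT14 had none named after it. The highest peak of these 11 genes had a median of 104 CPM in Cal33 and 39.1 in SAS, against 5.45 and 6.29 for all tested peaks. The 14 markers of blood, endothelial, stromal, melanocytic and glial cells had medians of 5.62 and 11.8 at the highest peak of the 13 with one. VWF was the highest of them in both lines, at 381 CPM in SAS, and lies on chromosome 12 in the region described below. By gene these highest peaks ran from 23.1 to 320 CPM in Cal33 and from 5.43 to 158 in SAS, with DSG3 lowest in both and, in SAS, under the median of all tested peaks. The highest of several peaks of a gene is set here against single peaks, which raises the former. At promoter-class peaks, which 7 squamous markers had, the medians were 104 CPM in Cal33 and 23.0 in SAS. All tested promoter peaks had 19.5 and 15.1, and the 6 markers of other cells with such a peak 2.15 and 4.23.

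Most tested peaks (78.5%) differed between the lines. Of 71348 autosomal peaks with enough counts to test, 26702 (37.4%) were higher in Cal33 and 29292 (41.1%) were higher in SAS at an edgeR adjusted p under 0.05. The median size on the log2 scale was 1.25 among peaks higher in Cal33 and -1.71 among peaks higher in SAS, written throughout as Cal33 minus SAS. In 50227 peaks (70.4%) the 4 values of one line lay wholly apart from the other 4. A peak was called open in 1 line where it was called, lay apart in all libraries and differed by at least 8-fold. By this rule 1521 peaks (2.13%) were open in Cal33 and 5078 (7.12%) in SAS. The sizes just inside and just outside the 8-fold bound were 3.00008 and 2.9999 on the log2 scale. The typical Cal33-open peak had 15.4 CPM in Cal33 against 1.21 in SAS, and the typical SAS-open peak 7.02 CPM in SAS against 0.425 in Cal33. SAS-open peaks were short, with a median of 675 bp against 934 bp for Cal33-open peaks and 973 bp for all tested.

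The lines divided their counts in autosomal peaks differently between promoter peaks and the other peak classes. Promoter peaks held 46.7%, 47.4%, 40.6% and 43.8% of the autosomal counts in the 4 Cal33 libraries and 34.1%, 33.5%, 34.3% and 34.4% in the 4 SAS libraries. The groups did not overlap, and the spread was wider in Cal33. The difference was 10.5 percentage points (exact permutation test, two-sided, p = 0.0286, the smallest that 4 against 4 libraries allow, and 0.0286 after adjustment over 5 peak classes). Among libraries of 1 sequencing run, Cal33 replicates 3 and 4 and all 4 of SAS, it was 8.11 points (exact p = 0.133, the smallest possible there). Intron peaks went the other way, at 29.9% ± 1.97 (SD, n = 4) in Cal33 and 35.4% ± 0.222 in SAS, and intergenic peaks at 16.7% ± 1.13 and 20.7% ± 0.109. The 1000 strongest peaks held between 14.8% and 18.7% of the counts of a Cal33 library but between 10.2% and 10.7% of a SAS library. Despite their lower depth, SAS libraries left 1.81% to 9.47% of autosomal peaks at a count of 0 and Cal33 libraries 6.99% to 17.8%. The counts of SAS were thus spread over more peaks, and peaks too weak to test held 12.2% ± 0.269 of them against 5.32% ± 0.821 in Cal33. Whether the background of the libraries differed between the lines was not tested, since the counts cover peaks only.

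**Figure D1:**
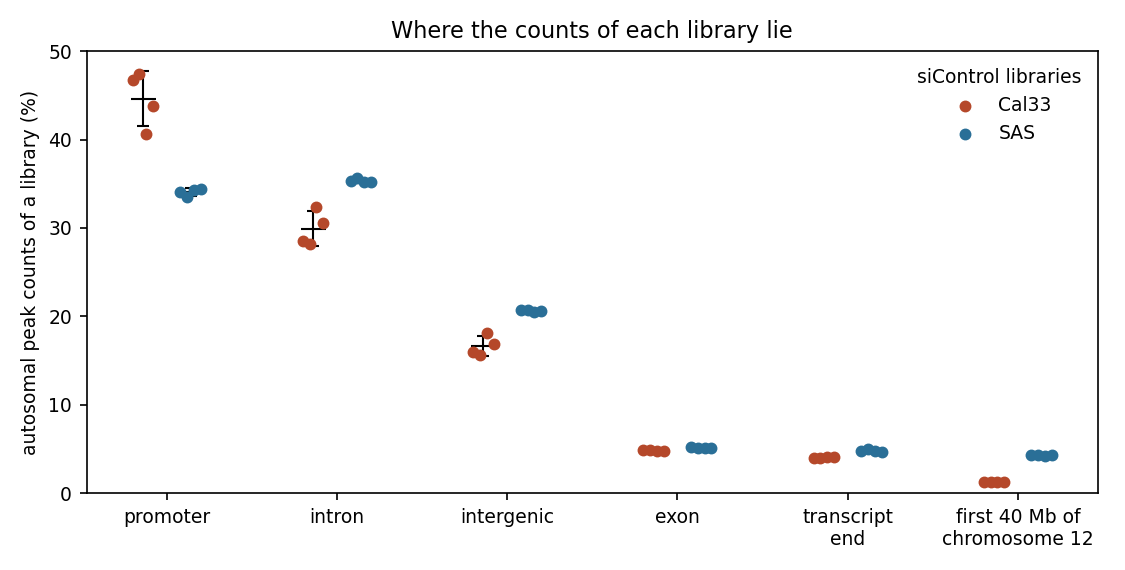
Share of a library's autosomal peak counts, in percent, that lay in each peak class and in the first 40 Mb of chromosome 12. Points are the 4 siControl libraries of each line, and the black bar and whiskers are their mean ± SD. Cal33 lies above SAS for promoters and below it elsewhere.

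The same imbalance sets the direction of promoter peaks, and it depends on the scaling. Of 14665 tested promoter peaks, 7670 were higher in Cal33 and 3874 in SAS, so that 66.4% of the called ones were higher in Cal33 and the median difference was 0.43. With total counts as the library size the share higher in Cal33 was 46.6%, and with factors taken from promoter peaks it was 48.5%. Those scalings moved the median of all tested peaks from -0.08 to -0.57 and -0.53, and a difference of a single peak is best read against that shift. A common factor moves every class alike, so the order of the class medians did not turn with these scalings. Intron peaks had a median of -0.21, intergenic peaks of -0.30, exon peaks of -0.32 and transcript-end peaks of -0.58. At promoters the peaks open in 1 line were 148 of 14665 (1.01%) in Cal33 and 575 (3.92%) in SAS, and among introns 2.39% and 8.01% of 31030. Beyond 100 kb from a start the shares were 4.08% and 13.9% of 2744 tested peaks.

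Among promoters open in Cal33 and closed in SAS, the largest difference with counts in both lines was at H2BC11, a replication-dependent histone H2B gene. Its peak at chr6:27131527-27134109 had 181, 186, 161 and 186 CPM in Cal33 and 0.556, 0, 0.205 and 0 CPM in SAS. SAS held 3 counts in all, for a ratio of 817 (exact 95% interval 279 to 3970, counting error only). H2BC11 belongs to a family of near-identical genes, and no source used here says how reads were shared among them. HOOK1, a linker between endosomes and microtubules, had 82.9, 82.1, 48.4 and 63.8 CPM in Cal33 and 3.62, 4.96, 2.05 and 1.36 in SAS. The log2 difference at HOOK1 was 4.66 ± 0.223 (SE, edgeR adjusted p = 7.21e-28).

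A promoter-class peak inside PLEKHG5, a RhoA exchange factor, had 94.0 to 142 CPM in Cal33 and 3.06 to 6.06 in SAS, and one inside CRACDL had 115 to 134 and 3.27 to 6.40. Inside SPECC1L, a cytoskeletal scaffold gene, the values were 55.3 to 70.4 in Cal33 and 1.65 to 3.00 in SAS, and at LOC105371059 47.8 to 57.9 and 0.551 to 1.91. No value of one line reached the range of the other at any of these 4. The rest of the 10 were NPIPB12 at its start, peaks inside SIPA1L3, 265945 bp from its start, and inside EFCAB6, and FAT1, described below. Without FAT1, these had Cal33 means of 12.7 to 26.6 CPM and log2 differences from 4.57 to 4.59. NPIPB12 lies in a duplicated gene family, with the same doubt on its reads as H2BC11.

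Promoters open in SAS by the 8-fold rule were more numerous, and those of largest difference, described here, were nearly empty in Cal33. A promoter could meet the rule without being empty, as at SINHCAF, with 34.0 to 51.2 CPM in Cal33 and 447 to 531 in SAS. CHFR, a ubiquitin ligase of an early mitotic checkpoint, had 22.5, 17.1, 23.4 and 24.2 CPM in SAS at chr12:132887253-132888167 and 0.388, 0, 0.283 and 0.213 in Cal33. The log2 difference was -6.31 ± 0.320 (SE, edgeR adjusted p = 1.32e-26). UBB, one of the polyubiquitin genes, had 20.0, 18.2, 20.8 and 19.6 CPM in SAS and 0.194, 0.344, 0.425 and 0.213 in Cal33. SETD6, a lysine methyltransferase whose known substrates include RELA, had 23.1, 24.3, 21.8 and 24.5 CPM in SAS and 0, 0, 0.849 and 0.213 in Cal33. These 3 promoters had Cal33 values below 1 CPM in every library, while the 4 SAS libraries lay between 17.1 and 24.5.

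The Golgi genes GOLPH3L and GOLT1A had SAS means of 22.8 and 24.0 CPM and Cal33 means of 0.307 and 0.315. ZNF260, a zinc-finger gene, had 21.9 and 0.307, and GALM, galactose mutarotase, 14.3 and 0.203. Inside ZFHX4 a promoter-class peak had 15.6 and 0.294. A promoter-class peak inside NEK6, a mitotic kinase gene, had a mean of 16.6 CPM in SAS against 3 counts in all of Cal33, for a ratio of 110 (exact 95% interval 37.3 to 539). GRIN2B, an NMDA receptor subunit gene, had 20.2 CPM in SAS and 3 counts in Cal33, for a ratio of 125 (42.3 to 610), and lies in the region of chromosome 12 treated below. With the median of its 5 Mb window removed, the GRIN2B promoter differed by -1.74 on the log2 scale, whereas the other 9 promoters of this set lay between -5.58 and -7.05. The many GRIN2B peaks outside promoters help set the median of that window.

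**Figure D2:**
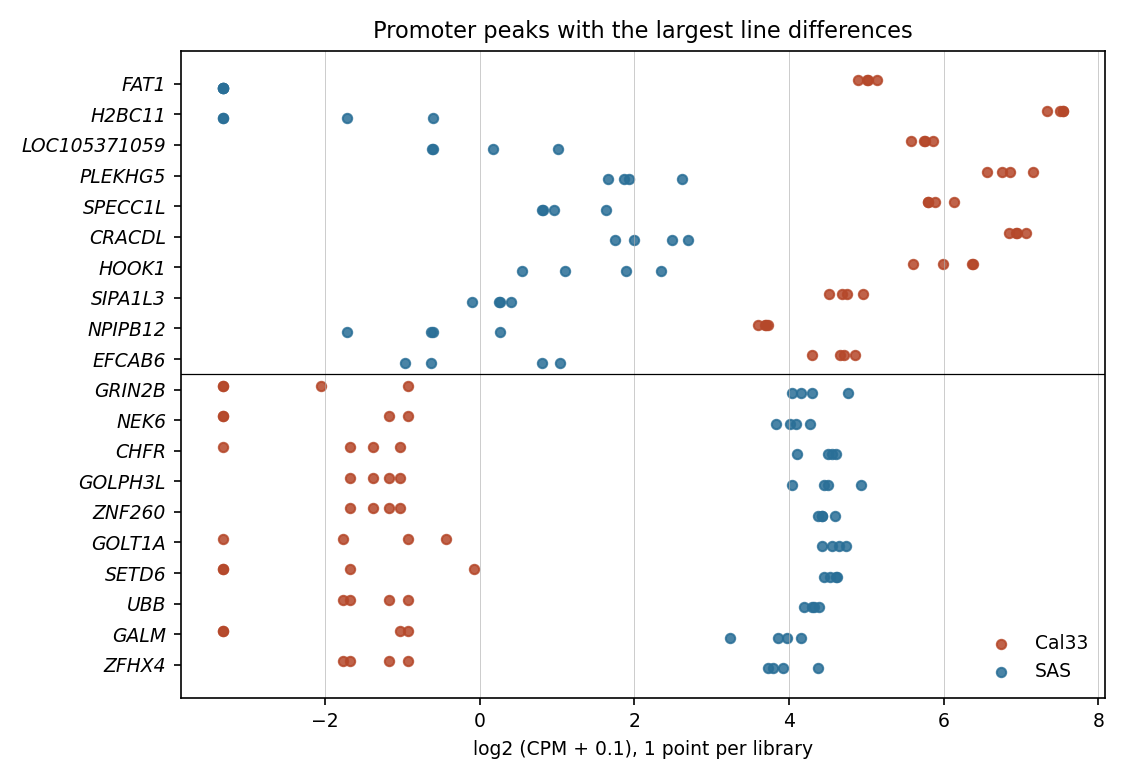
Level of the 20 promoter peaks with the largest differences, as log2 of CPM + 0.1, 1 point per siControl library. The 10 genes above the line were higher in Cal33 and the 10 below it in SAS, and the 2 lines overlap at none of them.

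Zinc-finger promoters are described as a group chosen after its values were seen. Of 7713 protein-coding starts with a tested promoter peak, 29 were open in Cal33 and 147 (1.91%) in SAS. Among the 250 whose symbol is ZNF and a number, 0 were open in Cal33 and 26 (10.4%) in SAS, and of the 111 on chromosome 19, 22 (19.8%). They include ZNF260, ZNF566, ZNF160, ZNF540, ZNF345 and ZNF585A. The ZNF promoters as a whole did not lean to SAS: 150 of 250 were higher in Cal33 and 61 in SAS, with a median of 0.68 against 0.61 over all starts. These genes arose by duplication, and no source used here says how reads were shared between copies.

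FAT1, a protocadherin gene that is often altered in squamous carcinoma, lay in a stretch with no count at all in SAS. Its promoter peak at chr4:186725792-186729289 had 32.0, 29.5, 32.4 and 35.0 CPM in the 4 Cal33 libraries and 0 in each SAS library. Against a floor of 3 counts over the SAS group, Cal33 was at least 151-fold higher. The stretch runs from chr4:186644076 to 186845825, 201750 bp that hold 13 deposited peaks. Cal33 had 1918 counts in them, SAS siControl 0 and the separate SAS siITGA7 libraries also 0, while Cal33 siITGA7 had 3393. It covers the 5′ part of FAT1 with its promoter and the intergenic peaks beyond.

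The 17 peaks within 500 kb on either side held 1689 counts in Cal33 and 852 in SAS. An intronic peak of F11 among them had 0 counts in Cal33 and 17 in SAS, and each of the others had counts in both lines. The nearest peak on the left, in an intron, had 26 and 20 counts, and the nearest on the right 40 and 12. Outside promoters, the intergenic peaks next to FAT1 and at LOC102723906 were at least 76.5-fold and 57.7-fold higher in Cal33 by the same floor. Whether the DNA or only its accessibility is missing was not tested, since the files hold no genomic reads. Across the autosomes, 96 peaks with 20 or more Cal33 counts had 0 in SAS, and 411 peaks with 20 or more SAS counts had 0 in Cal33. Other runs of 3 or more such peaks with 0 in SAS were 2 on chromosome 7 without a named gene, with 80 and 143 Cal33 counts. Runs with 0 in Cal33 lay on chromosomes 4, 6 and 12. The run on chromosome 6 was at HLA-DRB5 and HLA-DRB1, with 90 SAS counts, where haplotypes differ widely and the counting of reads can differ with them. The others had no named gene, and those on chromosome 12 lay between positions 34871353 and 37185117. These unnamed runs, on chromosomes 4, 7 and 12, lie at centromeres, whose repeats make read placement uncertain.

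**Figure D3:**
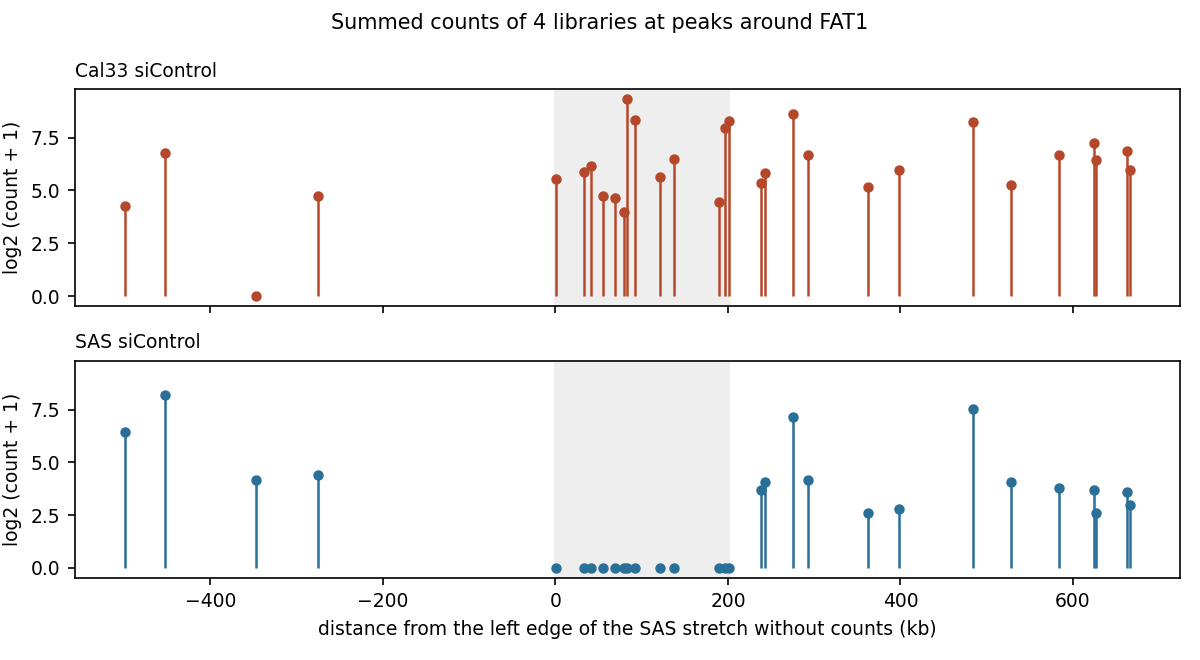
Summed counts of the 4 siControl libraries of each line, as log2 of count + 1, at every autosomal peak within 500 kb of the stretch, against the distance in kb from its left edge. Grey marks the stretch in which each SAS peak is at 0. The peaks on both sides carry counts in both lines, except 1 on the left at 0 in Cal33.

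Single-peak differences outside promoters with large size included CHL1, a neural adhesion gene, whose intronic peak had 7.56 to 14.6 CPM in Cal33 and 0 in every SAS library, at least 52.5-fold higher. In the siITGA7 libraries, described last, the log2 difference of this CHL1 peak was 3.00. A transcript-end peak within HEATR4 had 16.1 to 18.2 CPM in Cal33 and 1 SAS count, for a ratio of 241 (exact 95% interval 42.9 to 9530). An intergenic peak nearest to KRTAP24-1, a hair keratin-associated gene, had 21.9 to 30.7 CPM against 0.205 to 0.551, and one at LOC105376636 37.1 to 47.7 against 0 to 0.822. All 6 largest of this kind in SAS lay on chromosome 12, near KCNA5, GPRC5D and PARP11 and inside GRIN2B, ANO2 and ITPR2. Their SAS means were 18.6 to 27.8 CPM, with 1 to 4 counts in all of Cal33.

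The first 40 Mb of chromosome 12 held many of the peaks that were open in SAS. Its peaks took 4.30% ± 0.0819 of the counts in SAS (SD, n = 4) and 1.26% ± 0.0142 in Cal33. Of 1954 tested peaks there 1207 (61.8%) were open in SAS, which is 23.8% of all SAS-open peaks, against 5.58% of the tested peaks elsewhere. Outside promoters, 1155 of 1703 peaks (67.8%) were open in SAS against 6.09% elsewhere, with a median log2 difference of -4.77 and median levels of 0.547 CPM in Cal33 and 10.1 in SAS. Of 251 promoter peaks in the same region 52 (20.7%) were open in SAS against 3.63% elsewhere. Over the 251 the direction was mixed, with 115 higher in Cal33 and 99 in SAS. Their median difference was 0.21 and the median levels were 13.0 CPM in Cal33 and 13.5 in SAS. The region's peaks outside promoters were short, with a median of 700 bp against 908 bp elsewhere. In bulk libraries more copies of the DNA per cell and more open DNA per copy cannot be told apart.

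Whole genes there were covered with SAS peaks. All 172 tested peaks of GRIN2B were open in SAS, with a median of -5.87, and so were 106 of 118 in ITPR2, an inositol trisphosphate receptor gene. ANO2, an ion channel gene, had 96 of 98, LMNTD1 56 of 60 and NTF3, a neurotrophin gene, 55 of 57. VWF, the endothelial clotting factor gene, had 44 of 52. With the median of each 5 Mb window removed from its peaks, 6 of the GRIN2B peaks and 1 of the VWF peaks were still open in SAS by the 8-fold rule. The peaks of these genes outside promoters help set the median removed from them, so this loss was in part fixed in advance. At PARP11, in the same region, 29 of 31 peaks were open in SAS before the removal and 21 after it. Over all chromosomes that removal left 1688 Cal33-open peaks (2.37%) and 3143 SAS-open peaks (4.41%). On the Cal33 side the genes with most open peaks, ARHGAP32, CCDC200, KANK1, KAZN, MACROD2, OPCML, POU2AF3 and TNS3, had 5 each, of 7 to 32 tested. With window medians removed CCDC200 kept 5, OPCML 4, MACROD2 3 and TNS3 2. ARHGAP32, KANK1 and KAZN then had 1 each and POU2AF3 had 0.

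Regional levels were compared along every autosome. The level of each 5 Mb window was taken as the median log2 CPM of its peaks outside promoters, centred on each library's own median, and a window was called where the 4 values of one line did not overlap the other 4 and the difference was 0.5 or more. Of 528 windows 146 were higher in Cal33 and 66 in SAS. The lowest were on chromosome 12, at 10 to 15 Mb (-3.74), 25 to 30 Mb (-3.40) and 35 to 40 Mb (-3.23), the last of which includes centromeric repeats. At 10 to 15 Mb the Cal33 libraries had -2.17, -2.49, -2.60 and -2.46 and the SAS libraries 1.25, 1.36, 1.30 and 1.33. The region is not uniform, since 7 of its 8 windows were higher in SAS and the window at 15 to 20 Mb was higher in Cal33 (0.90).

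On chromosome 5 the first 5 Mb were lower in Cal33 by 2.11 outside promoters, and there promoters moved too, by -3.02. On chromosome 8 the window at 140 to 145 Mb had -1.57 outside promoters and 0.09 at its 110 promoter peaks. The highest windows were chromosome 3 at 0 to 5 Mb (2.60), chromosome 2 at 210 to 215 Mb (2.15) and chromosome 4 at 90 to 95 Mb (1.74), with 24 to 35 peaks each. By promoter peaks alone, 43 of 281 windows were higher in Cal33 and 58 in SAS.

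**Figure D4:**
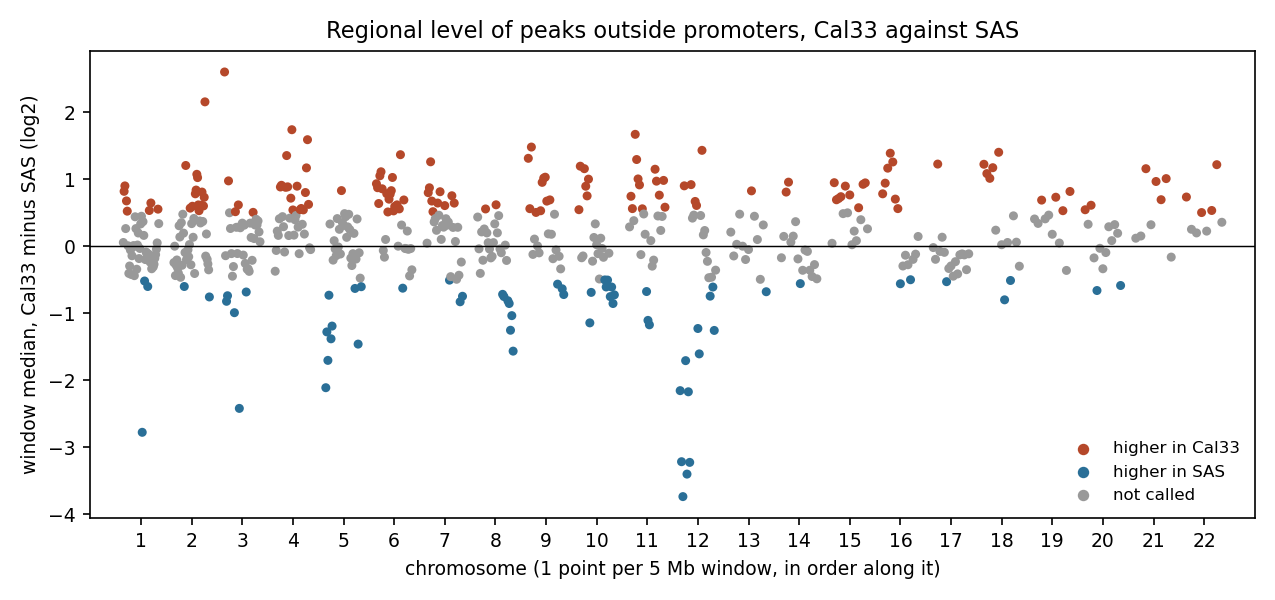
Regional shift of each 5 Mb window with 20 or more tested peaks outside promoters, as the Cal33 minus SAS difference of the centred window medians (log2), ordered along each chromosome. Red windows were called higher in Cal33 and blue ones higher in SAS. The windows under -3 are all on chromosome 12.

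Genes of the squamous programme were more open in Cal33, and less so once window medians were removed, as given below. The counts of this and the following lists stand beside 37.4% of all tested peaks higher in Cal33 and 41.1% higher in SAS. Of 186 tested peaks at squamous lineage transcription factor genes 103 were higher in Cal33 and 41 in SAS, with a median of 0.57 against -0.08 for all tested peaks. At their starts 18 of 22 peaks were higher in Cal33 and 2 in SAS, against 6824 and 2555 of 11998 for all peaks at a start. GRHL1, which opens epithelial enhancers, had 107, 108, 68.6 and 96.0 CPM at its start in Cal33 and 24.2, 23.2, 19.9 and 22.1 in SAS. An intergenic peak nearest to ELF3 had 263 to 393 CPM in Cal33 and 57.3 to 74.4 in SAS. RUNX1 had an intronic peak at 50.4 to 58.9 against 3.54 to 5.75. None of these ranges overlapped. KLF4, KLF5, SOX2 and PAX9 starts were also higher in Cal33, with differences of 1.26 to 1.62, although a transcript-end peak beside PAX9 was open in SAS, at 8.04 CPM against 0.44. FOXE1 was an exception, with a mean of 11.4 CPM at its start in Cal33 and 33.8 in SAS.

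Basal keratinocyte genes had 75 of 130 peaks higher in Cal33 and 26 higher in SAS, with a median of 0.70. KRT5, the basal keratin, had 263, 273, 207 and 246 CPM at its start in Cal33 and 42.3, 49.1, 58.8 and 45.7 in SAS, a log2 difference of 2.33 ± 0.149 (SE, edgeR adjusted p = 7.45e-22). TRIM29 had a peak of promoter class with means of 151 CPM in Cal33 and 18.9 in SAS. Not every peak of these genes went this way, since 2 peaks inside LAMB3, a laminin-332 chain gene, were open in SAS while its start was higher in Cal33 by 1.11.

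Differentiation genes had 33 of 57 peaks higher in Cal33 and 12 in SAS, with a median of 0.80. PPL, periplakin of the cornified envelope, had an intronic peak at 49.5, 46.7, 43.9 and 46.3 CPM in Cal33 and 0.835, 2.76, 2.26 and 0.817 in SAS. KRT13, a keratin of oral suprabasal layers, had 45.4 to 71.1 CPM against 4.45 to 6.06 at a promoter-class peak. S100A9 went the other way at its start, with 2.94 CPM in Cal33 and 12.1 in SAS. Junction genes had the highest median of the lists, 0.85, with 88 of 140 peaks higher in Cal33 and 33 in SAS. CLDN4, a claudin of tight junctions, had 156 to 223 CPM in Cal33 and 32.4 to 38.6 in SAS, and the desmosomal cadherin gene DSG2 had 31.1 to 50.1 and 8.27 to 8.90. CLDN1 was higher in SAS, at -0.52.

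With total counts as library size the medians of these 4 lists fell to between 0.08 and 0.36 as that of all peaks fell to -0.57, so they stayed above it. With window medians removed they were 0.16 to 0.31 against -0.13. In that setting 82 of the 186 lineage-factor peaks were higher in Cal33 and 60 in SAS. Basal genes had 60 and 40 of 130, differentiation genes 22 and 20 of 57 and junction genes 64 and 42 of 140. Over all 71348 tested peaks these were 24915 and 27756. The counts of 8-fold peaks per list and direction were at most 4 before that removal and at most 6 after it.

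The loci of epithelial microRNAs, a choice made after their values were seen, had peaks higher in Cal33 and peaks that did not pass the test. These microRNAs restrain ZEB factors or p63 and mark epithelial cells. The mature sequences from RefSeq, with the seed (bases 2 to 8) in capitals, show that miR-200c and miR-429 share a seed that miR-141 differs from.
hsa-miR-200c-3p: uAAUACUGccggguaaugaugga
hsa-miR-429: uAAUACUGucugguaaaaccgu
hsa-miR-141-3p: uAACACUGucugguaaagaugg
hsa-miR-203a-3p: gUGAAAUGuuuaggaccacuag
hsa-miR-205-5p: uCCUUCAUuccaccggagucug
The promoter peak within 2000 bp of MIR203A had 113, 116, 75.1 and 116 CPM in Cal33 and 17.0, 15.4, 15.0 and 10.9 in SAS, a log2 difference of 2.85 ± 0.164 (SE, edgeR adjusted p = 7.13e-24). The shared promoter peak of MIR200C and MIR141 had 118 to 170 CPM against 55.8 to 57.3, which is a difference of 1.41 although the locus lies in the first 40 Mb of chromosome 12. Of the 2 tested peaks by MIR205, one had 78.0 to 102 CPM against 26.3 to 39.2 and the other 15.1 to 24.0 against 17.1 to 19.9. At MIR21, which is not specific to epithelium, the peak had 46.3 to 55.7 and 46.2 to 70.9, overlapping ranges. A second, short peak by MIR200C and MIR141, at the end of a transcript, had 4.26 to 8.35 CPM in Cal33 and 5.51 to 7.08 in SAS (-0.13 on the log2 scale, edgeR adjusted p = 0.616). No tested peak lay that close to MIR429.

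Mesenchymal genes were more open in SAS. Of 109 tested peaks at drivers of epithelial-mesenchymal transition and mesenchymal genes 69 were higher in SAS and 19 in Cal33, with a median of -1.21. Of these, 12 peaks were open in SAS by the 8-fold rule and 0 in Cal33, where 7.12% and 2.13% of all tested peaks were. TWIST2, a transcription factor of mesenchyme, had 18.4, 11.6, 17.5 and 17.4 CPM at its start in SAS and 0.583, 0.687, 0.849 and 0.213 in Cal33. Its log2 difference was -4.72 ± 0.298 (SE, edgeR adjusted p = 4.49e-22), and 2 further peaks of the gene were open in SAS. A peak at a long noncoding RNA promoter, 84827 bp from the start of TCF4, its nearest protein-coding gene, had 9.37 to 14.4 CPM in SAS. It had 0 to 0.388 in Cal33. PRRX1 had 5.56 to 7.35 against 0.344 to 1.27 at its start, and a promoter-class peak inside TGFBI, a matrix protein gene, 25.4 to 28.0 against 0.344 to 1.36.

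Other members of this list did not differ in that way at their starts. LOX and SPARC were higher in SAS at about a 2-fold difference (-1.25 and -1.21). ZEB1 had 15.3 to 23.4 CPM in Cal33 and 15.4 to 17.2 in SAS, and VIM 42.5 to 49.7 and 33.6 to 38.1, which is higher in Cal33 by 0.36. With total counts as library size the list's median was -1.69, with classes centred apart -1.23 and with window medians removed -0.79.

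Markers of other cell types moved with this list. Fibroblast markers had 11 of 16 peaks higher in SAS and 3 in Cal33, and neural and melanocyte markers 51 of 81 and 15. Endothelial and blood markers had 79 of 103 higher in SAS and 12 in Cal33, with a median of -2.91. Outside the first 40 Mb of chromosome 12, which holds VWF and CD4, these became 24 of 48 and 12 with a median of -0.43. Of the 14 defining markers of such cells, DCN had no peak. The highest peaks of the other 13 ranged from 0.463 to 381 CPM in SAS. CD3E, LUM, COL3A1 and MLANA lay at 0.463 to 2.32 CPM there, and PTPRC at 6.56. CDH5 had 43.1 CPM in SAS and 20.0 in Cal33, CSF1R 30.1 and 21.7, PECAM1 15.6 and 5.62, GFAP 15.5 and 1.86, PDGFRA 11.8 and 8.95, and COL1A1 24.9 and 52.6. Their part in the mesenchymal result was not tested.

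**Figure D5:**
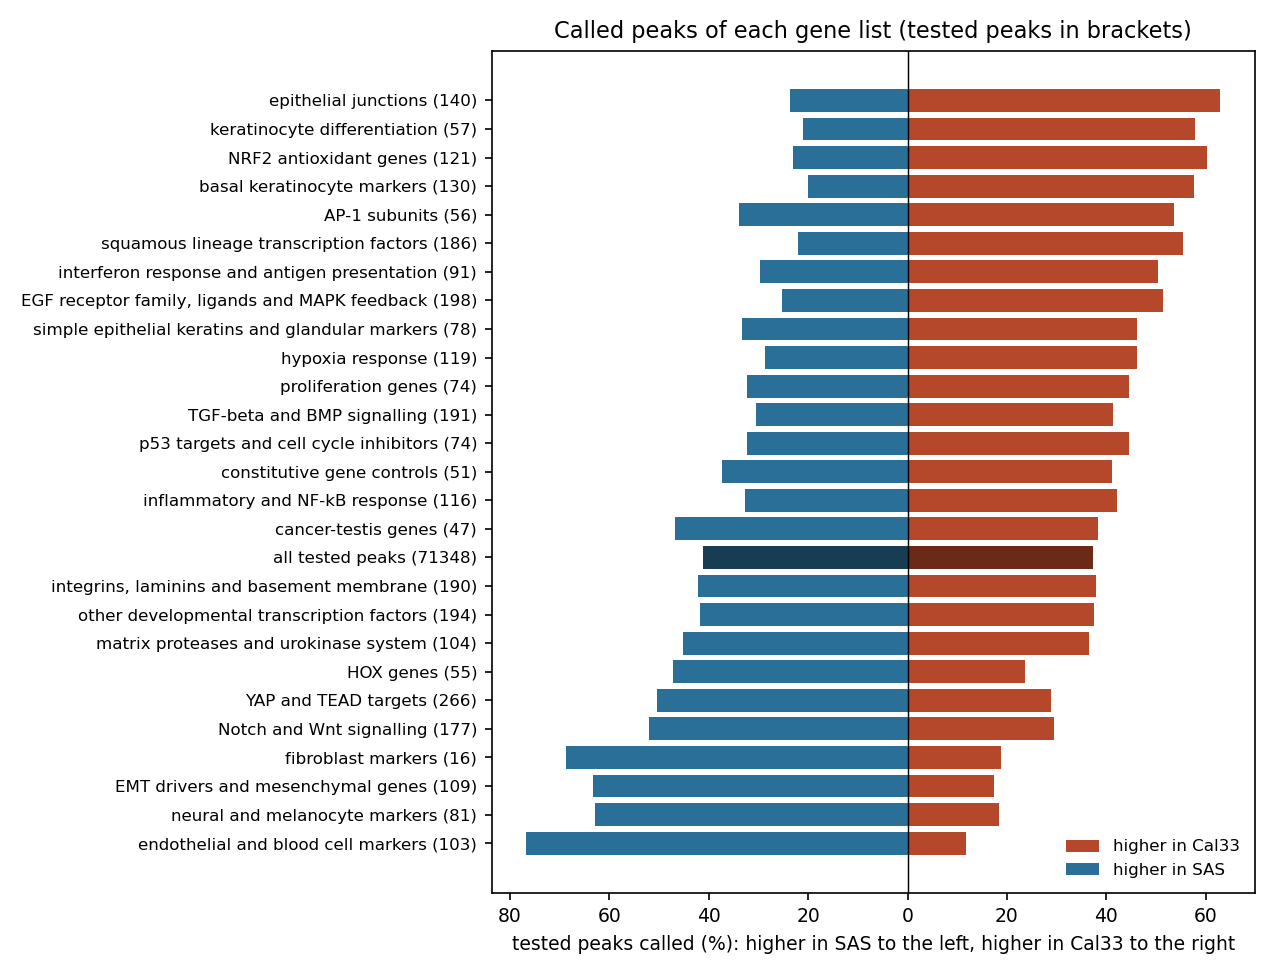
Share of the tested peaks of each gene list that was called higher in SAS (left, blue) or higher in Cal33 (right, red), in percent, with the number of tested peaks in brackets. Lists are in order of their median log2 difference, and the dark bars are all 71348 tested peaks. Epithelial junction, differentiation and NRF2 lists lie at the top and mesenchymal, neural, endothelial and fibroblast ones at the bottom.

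AP-1 genes leaned to Cal33. All 8 tested peaks at starts of AP-1 subunit genes were higher in Cal33, where 6824 of 11998 over all peaks at a start were. Over the whole list 30 of 56 peaks were higher in Cal33 and 19 in SAS. FOSB had 139 to 201 CPM at its start in Cal33 and 37.8 to 50.1 in SAS, JUND 176 to 329 and 74.4 to 86.5 and FOS 133 to 188 and 58.4 to 67.6. An intron-class peak nearest to FOS had 104 to 132 CPM against 10.3 to 12.7. FOSL1, another FOS-family gene, had an exonic peak that was open in SAS, with means of 0.616 and 6.84 CPM. Targets of YAP and TEAD had 134 of 266 peaks higher in SAS (50.4%) and 77 in Cal33 (28.9%), or 116 and 80 with window medians removed. A peak inside PTPN14 had means of 4.41 CPM in Cal33 and 49.4 in SAS, while one inside WWTR1, the gene of the YAP paralog TAZ, had 41.2 and 3.63.

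Integrin, laminin and basement-membrane genes were split near the background, with 72 of 190 peaks higher in Cal33 and 80 in SAS. Members differed strongly in both directions. ITGA4, the alpha 4 integrin chain, had 14.2, 12.7, 16.2 and 22.6 CPM at its start in SAS and 1.55, 0.687, 0.283 and 1.49 in Cal33. LAMB1 had 21.4 to 26.4 CPM in SAS and 5.84 to 7.77 in Cal33, and ITGA1 23.2 to 28.1 and 5.33 to 12.4. ITGB1, the common beta 1 chain, had 51.1 to 84.1 CPM in Cal33 and 16.0 to 23.2 in SAS. An intronic peak of LAMA5, a laminin alpha chain gene, had 144 to 232 and 22.3 to 30.3, and an intergenic peak nearest to NID1, the linker nidogen, 118 to 217 and 7.23 to 15.0. None of these ranges overlapped.

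Matrix proteases were near the background of all tested peaks, with 38 of 104 peaks higher in Cal33 (36.5%) and 47 in SAS (45.2%). By the 8-fold rule 11 of the 104 were open in SAS, 5 of them inside ADAM12, and 3 in Cal33. Over all tested peaks these shares were 7.12% and 2.13%. An intergenic peak nearest to MMP14, the membrane-bound matrix metalloprotease, had 19.6 to 28.2 CPM in SAS and 1.37 to 2.35 in Cal33. At the MMP14 start the means were 38.1 in Cal33 and 35.9 in SAS. PLAUR, the urokinase receptor gene, had 198 CPM at its start in Cal33 and 70.2 in SAS, and PLAU, the protease it binds, 6.60 and 13.0.

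HOX genes had 26 of 55 peaks higher in SAS (47.3%, against 41.1% of all tested peaks) and 13 in Cal33 (23.6%, against 37.4%). HOXA4 had 43.9, 53.9, 32.3 and 33.7 CPM at its start in Cal33 and 5.56, 4.41, 4.52 and 3.81 in SAS, while peaks at or inside HOXA3, HOXC4, HOXD4 and HOXD10 were open in SAS. Other developmental factors had 73 of 194 higher in Cal33 and 81 in SAS. In that list an intergenic peak nearest to MEIS1, a HOX cofactor, had means of 25.8 CPM in Cal33 and 1.37 in SAS.

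Signalling lists were mixed. Genes of the EGF receptor family, its ligands and MAPK feedback had 102 of 198 peaks higher in Cal33 and 50 in SAS, which turned to 60 and 67 with window medians removed. An intergenic peak nearest to FGFR3 had 102 to 142 CPM against 3.86 to 6.26, and an intronic peak of EGFR 45.4 to 49.7 against 3.31 to 4.52. Notch and Wnt genes had 92 of 177 higher in SAS (52.0%) and 52 in Cal33 (29.4%), or 76 and 48 with window medians removed. The start of DKK1, a secreted Wnt antagonist, had 35.1 to 43.3 CPM in SAS and 7.25 to 9.96 in Cal33, whereas a promoter-class peak inside LFNG, which glycosylates Notch, had 51.7 to 67.8 and 320 to 524. TGF-beta and BMP genes had 79 of 191 higher in Cal33 and 58 in SAS, or 65 and 60 with window medians removed. Inflammatory and NF-kB genes had 49 of 116 and 38, which turned to 34 and 52 in that setting.

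NRF2 targets were among the lists most open in Cal33, with 73 of 121 peaks higher there and 28 in SAS and a median of 0.75. With window medians removed these were 70 and 26. NFE2L2, the gene of NRF2, had 130 CPM at its start in Cal33 and 43.3 in SAS, and PGD, of the pentose phosphate pathway, had an internal promoter-class peak at 28.8 to 41.9 and 1.64 to 2.76. AKR1B1 was higher in SAS, at -1.59. Interferon and antigen presentation genes had 46 of 91 higher in Cal33 and 27 in SAS, or 34 and 30 with window medians removed. At their starts 21 of 26 were higher in Cal33 and 0 in SAS, against 6824 and 2555 of 11998 for all peaks at a start. The start of B2M, the light chain of MHC class I, had 57.7 to 83.1 CPM in Cal33 and 22.0 to 25.9 in SAS.

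Hypoxia genes had 55 of 119 peaks higher in Cal33 and 34 in SAS, p53 targets and cell cycle inhibitors 33 of 74 and 24, and proliferation genes likewise 33 of 74 and 24. With window medians removed the proliferation genes had 26 and 25. Simple epithelial and glandular genes had 36 of 78 and 26, or 29 and 31 with that removal, with a promoter-class peak inside MUC20 at 150 CPM in Cal33 and 10.2 in SAS. Cancer-testis genes had 18 of 47 and 22. The constitutive control genes, meant to differ little, had 21 of 51 higher in Cal33 and 19 in SAS with a median of 0.14. At their starts 10 of 16 were higher in Cal33 and 1 in SAS, so a start higher in Cal33 was common in this list too at this scaling. With total counts as library size the medians of 9 of these lists turned negative. They became -0.05 for the EGF receptor list, -0.04 for interferon genes, -0.31 for TGF-beta and BMP, -0.43 for inflammatory genes, -0.23 for hypoxia, -0.32 for p53 targets, -0.27 for proliferation, -0.17 for simple epithelial genes and -0.36 for the constitutive controls, all above the -0.57 of all tested peaks. AP-1 genes (0.07) and NRF2 targets (0.25) stayed positive.

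The share of CpG-rich windows was compared between promoters open in 1 line and all tested ones. A ratio of observed to expected CpG of 0.6 or more was found in 14 of 29 protein-coding start windows open in Cal33 (48.3%), in 100 of 147 open in SAS (68.0%) and in 86.8% of all 7713. Over all 33725 autosomal RefSeq windows the share was 49.0%. These groups also differed in level, with a median log2 CPM of 3.90, 2.28 and 4.84, and the part of the level in the CpG share was not tested.

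Motifs were counted on both strands of the same windows. The SP and KLF box GGGCGG was in 44.8% of Cal33-open windows, 59.9% of SAS-open ones and 75.0% of all tested, against 45.0% of all RefSeq windows. The ETS core CCGGAA was in 20.7%, 21.8% and 30.7%, against 17.3%. The NRF2 element TGACNNNGC was in 8 of 29 Cal33-open windows (27.6%), 13.6% of SAS-open ones and 15.2% of all tested, against 13.3%. It can overlap the AP-1 site TGANTCA, which was in 3 of 29 (10.3%), 5.44% and 4.78%, against 7.67%. The nuclear receptor site AGGTCA was in 24.1%, 15.0% and 9.19%, against 13.8%. The NRF1 site was in 0 of 29, 6.12% and 11.7%, against 5.79%. The SOX site ACAATG was in 3.45%, 10.9% and 5.46%, against 10.8%. The GATA site AGATAA was in 10.3%, 9.52% and 4.24%, against 10.4%. For the other 15 motifs the SAS-open share differed from that of all tested windows by -4.5 to 1.53 percentage points. On the Cal33-open side, the AP-2 site GCCNNNGGC was in 4 of 29 windows (13.8%) against 35.1% of all tested, and the ZEB and SNAI site CACCTG in 8 of 29 (27.6%) against 18.9%. With 29 Cal33-open windows 1 window is worth several points, and peaks away from starts could not be searched because no genome sequence was at hand.

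The line difference held in the other 8 libraries, whose cells had received siRNA against ITGA7 and which share no library with those above. There 77608 peaks were tested, and 27358 (35.3%) were higher in Cal33 and 28633 (36.9%) in SAS. Of the 1521 Cal33-open peaks 1496 were tested, all 1496 had the same sign, 1491 were also called and 731 met the 8-fold rule again. Of the 5078 SAS-open peaks 4212 were tested, all 4212 had the same sign, 4211 were called and 3295 met the rule. A peak nearly empty in 1 line passes the count filter only through the other. Agreement in sign among the tested open peaks was therefore largely fixed in advance. The SAS siITGA7 libraries were shallow, with 737115 to 1814568 autosomal counts, and why peaks dropped out was not tested. Sizes were not always alike, as at CHL1 (8.54 with siControl and 3.00 here). Across 65953 peaks tested in both sets the log2 differences correlated at 0.951, a description over peaks that share their cell lines. Of the 212 called windows 210 had the same sign, and the window at 10 to 15 Mb of chromosome 12 had -3.98. The promoter share was 41.2% in Cal33 and 30.6% in SAS, each a mean of 4 libraries.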

How the data were processed

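Per the file headers, the authors deposited raw counts per peak and library for 1 peak set shared by both lines, with a peak annotation, and the deposited raw counts were used here. The deposited normalized signal columns were not used. Per the submitters' processing notes, the build was hg38 or GRCh38 and bcl2fastq 2.20.0 was used. For duplicates, for any transposase shift and for the peak caller and aligner, the steps were not given in the sources used here. Intervals therefore cover counting error only.

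Of the 164980 peaks 5206 off the autosomes were left out. Peaks took the name of a RefSeq gene (GRCh38.p14) with a start within 500 bp, else of the gene body they lie in, else of the nearest start within 100000 bp, and 33406 stayed unnamed. A name says where a peak lies, not which gene it acts on. Peaks with enough counts (edgeR filterByExpr, 71348) were fitted with edgeR 4.0.16 (R 4.3.3), TMM factors of 0.786 to 0.924 in Cal33 and 1.17 to 1.21 in SAS, and the quasi-likelihood test, adjusted by Benjamini-Hochberg over all of them. CPM were scaled to each library's total over tested peaks, after TMM. The script was tested on simulated data. Shares were compared by the exact permutation test (scipy 1.17.1). Window medians use a prior count of 2, which shrinks low levels toward each other.

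Members and the 26 gene lists were chosen with earlier results of these data known, and the 23 motifs as well. Named peaks were, in each direction, the 10 promoter and 6 other peaks of largest size with a level at or above the median, up to 3 genes of smallest p per list, the 5 genes with most 8-fold peaks (here with ties) and the 3 windows at either end. The labels number replicates 1 to 4 in both lines and call the number a batch. Deviations of same-numbered libraries correlated at -0.0201, -0.0039, -0.0568 and 0.005, so the numbers were not used as pairs. Alternatives were other scalings and filters, thinning, leaving out each library, and DESeq2 1.42.0.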

Additional observations from a re-analysis of the deposited data

Results flagged for a closer look

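In groups of 4 libraries, 1 value stood far from the other 3 in 18 of 232 groups looked at, where chance alone flags about 1 in 20. All values are log2 CPM. In Cal33 the low value was replicate 3 at peaks of EHF (5.68), MUC4 (7.02) and PKP1 (6.39), and replicate 2 was apart at TGFBI (-0.291) and MAP2 (5.69), replicate 4 at SDHA (6.00) and replicate 1 at PECAM1 (0.874). At the chromosome 12 peaks of KCNA5 and GRIN2B replicate 3 of Cal33 was apart (-0.700 at each), where the other libraries had no count. In SAS replicate 2 was apart at TWIST2 (3.59), FOS (3.72), FGFR3 (2.12) and IL1RN (2.83), replicate 3 at HEATR4 (-0.558), LFNG (6.09) and SERPINB2 (3.63), and replicate 1 at EHF (4.12) and SPO11 (3.67). SAS replicate 2 is the shallowest library and Cal33 replicate 3 has the lowest promoter share of its line.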

How the results depend on the processing

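Counts of peaks higher in Cal33 and in SAS (26702 and 29292) became 44141 and 54593 with no filter, 8183 and 7852 with at least 50 counts on average, 13417 and 14748 after thinning to the smallest library and 12507 and 17889 when tested against a 2-fold change. Fewer or more peaks tested accounts for the first 2 by construction. Thinning also left fewer peaks to test, 39321 against 71348. Cal33-open and SAS-open peaks (1521 and 5078) became 750 and 7875 with total counts as library size, 3672 and 8509 with no filter, 241 and 575 with at least 50 counts and 628 and 3219 after thinning. Cal33-open peaks were 809 with factors from promoter peaks. SAS-open peaks were 3023 with offsets trended on level and 3143 with window medians removed. The share of called promoter peaks higher in Cal33 (66.4%) reversed to 46.6% with total counts, 48.5% with promoter factors, 48.2% with trended offsets and 48.3% with classes centred apart, and was 52.7% with at least 50 counts. Beyond what the construction gives, the cause was not tested.

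The promoter share difference (10.5 points) ranged from 9.62 to 11.9 with each library left out, where p = 0.0571 is the smallest exact value possible. It was 8.11 points over libraries of 1 sequencing run (exact p = 0.133, the smallest possible) and 10.5 with the replicate block (exact sign flips, p = 0.125, the smallest possible). The block gave 26466, 29122, 1521 and 5087 peaks and changed no other call. Without each library in turn the 4 counts ranged over 25049 to 30519, 27005 to 35275, 1564 to 2000 and 5060 to 5868. Called windows were 212, and 107 with 10 Mb windows and 101 with promoter peaks. Leaving out the first 40 Mb of chromosome 12, an alternative chosen after seeing the data, left 1499 and 3871 open peaks. Of 2382 refitted values at 110 named peaks, 2381 kept direction and call. The exception was CD4, at -0.21 with window medians removed. SAS depth limits peaks of low level most.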
